A study of Mus musculus with 4 samples.

Results

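The circadian clock genes described here are 10 genes taken by name: the activators Arntl and Clock, the repressors Per1, Per2, Per3, Cry1 and Cry2, the nuclear receptors Nr1d1 and Nr1d2, and the output factor Dbp. All 10 were among the 55341 genes of the count tables, and all 10 were among the 16617 genes that passed the filter on low counts. Their RNA was measured in cerebellar tissue of mice at postnatal day 14, in 2 Kdm6b-cKO and 2 WT libraries, each from an individual mouse. Kdm6b-cKO mice carried Atoh1-Cre and 2 loxP-flanked Kdm6b alleles (Kdm6b fl/fl), and the WT mice were Kdm6b fl/fl littermates without Cre, so that floxed alleles were common to both groups. Kdm6b encodes a demethylase of lysine 27 of histone H3, and the loxP sites flank the exons of its catalytic domain. Atoh1-Cre is driven from a gene of granule neuron precursors, so the tissue also held cells in which no deletion was designed. The sources used here do not give the hour of dissection of any animal, on which clock gene levels depend.

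The circadian clock is a loop of transcription that runs in most cells of the body. The proteins of Arntl (also called BMAL1) and Clock bind E-box sequences and switch on the Per and Cry genes, whose proteins return to the nucleus and repress that same activity. A second arm is formed by the REV-ERB receptors, encoded by Nr1d1 and Nr1d2, which are switched on through E-boxes and repress Arntl. Dbp, another E-box target, acts on D-box sequences in output genes and in Per genes. In the tissues of a mouse, Arntl RNA peaks when Nr1d1, Dbp and Per RNA are low. Groups of animals dissected at different hours can thus differ in opposite directions for these sets, depending on the hours. Clock RNA swings less than Arntl RNA, and Cry1 peaks later than the Per genes.

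Promoter stretches are shown for the members whose change passed the test, Per1 and Dbp, and for Cry1 and Per3, whose windows hold matches to clock motifs. The Dbp stretch, from 250 to 160 bases before the start, holds no match. Whether any matched letters are bound was not tested. Stretches are written 5′ to 3′ on the strand of the gene, contain no annotated exon of GENCODE M21, and carry E-box (CACGTG), E′-box (CACGTT or its reverse complement) and D-box (TTANGTAA or TTATGNAA) matches in capitals.
Per1, chr11:69098749-69098947, plus strand: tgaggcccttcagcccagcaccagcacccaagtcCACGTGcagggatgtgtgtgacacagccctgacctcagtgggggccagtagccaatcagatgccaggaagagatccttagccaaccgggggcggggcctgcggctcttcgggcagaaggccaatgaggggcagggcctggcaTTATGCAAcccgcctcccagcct
Dbp, chr7:45704997-45705087, plus strand: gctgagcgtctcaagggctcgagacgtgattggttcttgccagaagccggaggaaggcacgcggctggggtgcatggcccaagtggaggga
Cry1, chr10:85185095-85185154, minus strand: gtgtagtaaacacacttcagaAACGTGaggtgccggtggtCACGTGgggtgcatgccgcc
Per3, chr4:151044806-151044885, minus strand: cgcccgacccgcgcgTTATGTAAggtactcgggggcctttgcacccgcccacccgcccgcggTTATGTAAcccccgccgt
The Per1 stretch holds an E-box that begins 166 bases before its RefSeq start and a D-box match that begins 24 bases before that start. Another RefSeq window of Per1, 69099902 to 69100201, holds no match. Both windows lie inside the annotated gene, which begins at 69095217. The Per3 stretch holds a pair of identical D-boxes, beginning 205 and 158 bases before the start, which match both spellings of the motif. Cry1 carries an E-box and an E′-box, beginning 60 and 79 bases before its start.

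Windows of 250 bases before to 50 bases after a RefSeq start (GRCm38.p6) were found for 9 of the 10 members, in 13 windows, Per2 being the other one. On either strand, the E-box was in the windows of Per1 and Cry1 and in 7.15% of all 32851 windows. The E′-box was in those of Cry1, Cry2 and Nr1d1, against 4.68% of all windows. D-box matches were in Per3 for the spelling TTANGTAA, found in 2.32% of all windows, and in Per1 and Per3 for the overlapping spelling TTATGNAA, found in 3.38%. The core of the ROR element, TAGGTCA, through which REV-ERB receptors act, was in a window of Arntl alone among the members and in 2.61% of all windows. A cAMP response element in full, TGACGTCA, was in 0 of the members' windows and in 1.79% of all. Dbp, Nr1d2 and Clock held none of these letters in their windows, which says nothing of motifs farther away.

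Counts in genes ran from 8811849 to 9892363 per library, and a clock gene had between 409 and 1917 counts in any library. At an adjusted p under 0.05, Kdm6b-cKO cerebellum had 310 tested genes up and 361 down (edgeR's quasi-likelihood test, Benjamini-Hochberg over all tested genes), which is 4.04% of genes in either direction, 1.87% higher and 2.17% lower. Kdm6b itself was at 127 and 119 CPM (TMM-scaled counts divided by library size in units of 1e+06) in cKO and 154 and 154 CPM in WT, −0.33 on the log2 scale (SE 0.076) with edgeR adjusted p = 0.0162. Granule neuron markers such as Gabra6 (409 to 591 CPM) and Purkinje cell markers such as Pcp2 (315 to 336 CPM) were present in every library. By Xist and Y-linked genes, WT 1 showed the male and the other libraries the female pattern, so only comparisons without WT 1 are within 1 sex. Choroid plexus markers stood out in cKO 1, where 3 tested markers summed to 647 CPM, against 21.6 CPM in cKO 2 and 10.8 and 9.61 CPM in WT. Of the markers of the pineal gland, a tissue with a strong clock, Aanat had 8 and 7 counts in cKO and 14 and 6 in WT, and Asmt had 0 and 0 counts in cKO and 0 and 1 in WT. Chrna3, the 1 of 5 pineal markers that was tested, had 45 and 83 counts in cKO and 28 and 38 in WT (edgeR adjusted p = 0.133), and its part in the clock gene values was not tested.

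In Kdm6b-cKO cerebellum the clock genes Per1 and Dbp fell by edgeR, and the differences in the other members were smaller and did not pass the test. In DESeq2 0 members passed, with an adjusted p of 0.0967 for Per1 and 0.173 for Dbp. When edgeR was run on unfiltered counts 0 passed, at an adjusted p of 0.142 and 0.169. In the main edgeR fit 2 of the 10 members fell, 0 rose and 8 did not pass, where 2.17% of all tested genes were called lower. The members, and the gene lists below, were chosen with earlier results of these data known. Their shares beside those of all tested genes are thus a description. The log2 fold change was below 0 in 9 of the 10, with a median of −0.17, where 49.3% of all tested genes were below 0 and their median was 0.0036. In 7 members both cKO libraries lay below both WT libraries, and in 0 members above, while 23.2% of all tested genes had cKO below WT and 23.2% above. At an unadjusted p under 0.05 (edgeR) 5 members were lower and 0 higher, against 8.5% of all tested genes lower and 16.3% in either direction. In bulk tissue, fewer cells of a type and less RNA per cell cannot be told apart.

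**Figure D1:**
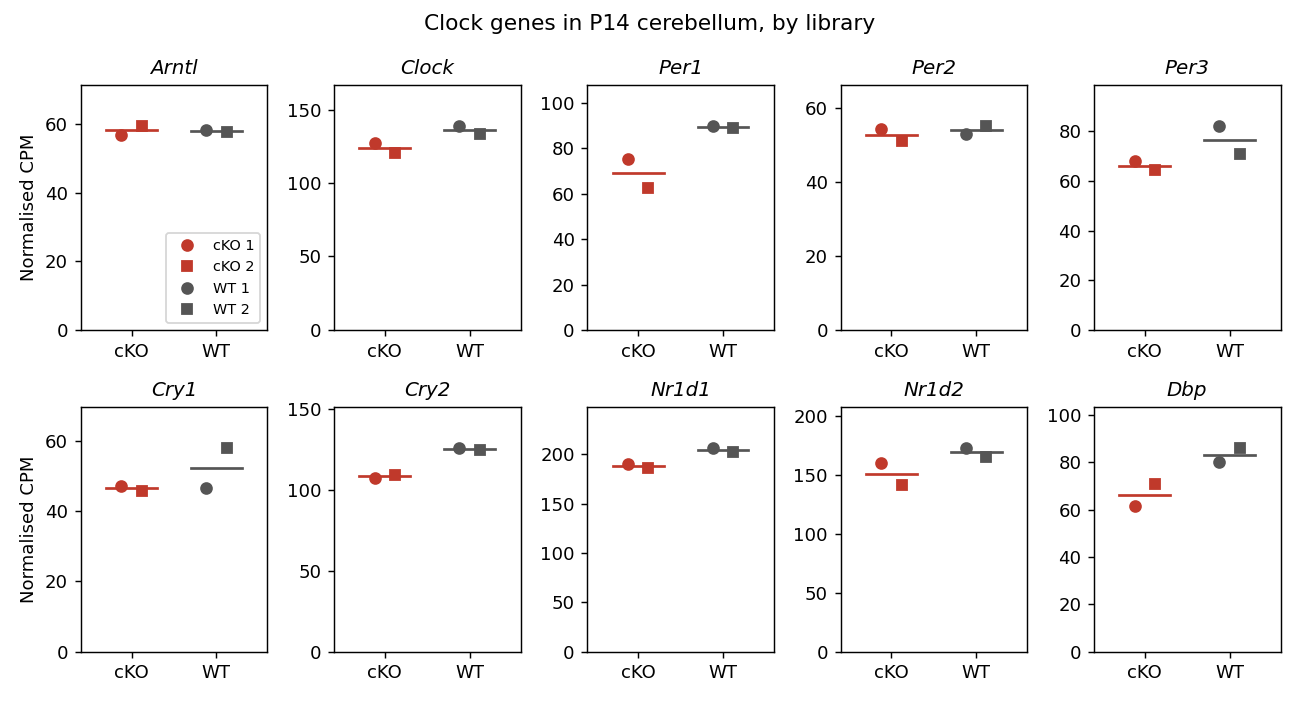
Normalized expression in CPM (vertical axis, from 0) of the 10 clock genes, with cKO (red) left of WT (grey), a point for each library (circle for replicate 1, square for replicate 2) and a horizontal bar for the group mean. Both cKO points lie below both WT points in Per1, Dbp, Cry2, Clock, Per3, Nr1d1 and Nr1d2. Arntl is at 56.8 to 59.5 CPM in all libraries.

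Arntl, the activator that every turn of the loop depends on, was at 56.8 and 59.5 CPM in cKO, against 58.4 and 57.8 CPM in WT. The groups overlapped, and the cKO libraries lay on either side of the WT pair. Its log2 fold change was 0.00072 (95% interval −0.19 to 0.19, edgeR adjusted p = 0.997), so a difference of the size seen in Per1 lies outside the interval. The gene occupies chromosome 7 from 113207465 to 113314126 on the plus strand of GRCm38, and shares 33 of 7523 exon bases with the antisense gene Gm45355. Clock, which encodes the partner of the Arntl protein, was at 127 and 120 CPM in cKO, against 139 and 134 CPM in WT. Both cKO values were below both WT values, with a log2 fold change of −0.14 (95% interval −0.30 to 0.020) and edgeR adjusted p = 0.394. Neither activator was higher in cKO beyond the spread between replicates.

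Per1, a repressor gene that is also an immediate target of cAMP and activity signaling, fell in Kdm6b-cKO cerebellum. It was at 75.5 and 62.4 CPM in cKO, against 90.0 and 88.8 CPM in WT, on average 22.8% lower. The WT pair was nearly level, and the cKO pair differed by 1.21-fold with the lower value in cKO 2. The log2 fold change was −0.37 (SE 0.091, 95% interval −0.56 to −0.18) with edgeR adjusted p = 0.0234. It was −0.52 without cKO 1, −0.24 without cKO 2, −0.36 without WT 1 and −0.38 without WT 2, and only in the last of these did it pass (edgeR adjusted p = 0.299, 0.483, 0.0789 and 0.0408). The gene lies on the plus strand of chromosome 11, 69095217 to 69109960, on the same chromosome as Kdm6b (69398508 to 69413675), and no other annotated gene shares its exons.

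The other Period genes did not pass. Per2, which encodes a repressor with a central place in the loop, was at 54.3 and 51.1 CPM in cKO, against 53.2 and 55.3 CPM in WT, and the groups overlapped (log2 fold change −0.040, 95% interval −0.24 to 0.16, edgeR adjusted p = 0.894). Per3, which is dispensable for rhythm in mice and whose promoter pair of D-boxes is printed above, was at 67.8 and 64.3 CPM in cKO, against 82.2 and 70.8 CPM in WT. Both cKO values were the lower ones, but the WT libraries lay farther apart, at a ratio of 1.16, than the lower of them from the higher cKO library (log2 fold change −0.21, 95% interval −0.40 to −0.020, edgeR adjusted p = 0.248). Without WT 1 the value for Per3 was −0.10, and without WT 2 it was −0.31.

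The cryptochromes are the partners of the Period proteins in repression. Cry2 was at 108 and 109 CPM in cKO, against 126 and 124 CPM in WT, the tightest replicates of any member with non-overlapping groups. Its log2 fold change of −0.21 (95% interval −0.37 to −0.050) did not pass (edgeR adjusted p = 0.149), and it stayed between −0.22 and −0.20 with any library left out. Cry1 was at 47.1 and 45.8 CPM in cKO, against 46.7 and 58.1 CPM in WT, where WT 1 lay between the cKO values. The difference in Cry1 (log2 fold change −0.17, 95% interval −0.40 to 0.056, edgeR adjusted p = 0.474) rested on WT 2, without which it was −0.0078. A stretch of 295 of 6320 exon bases of Cry2 is shared with D930015M05Rik on the other strand.

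The REV-ERB receptor genes were the most abundant members. Nr1d1 was at 190 and 186 CPM in cKO, against 207 and 203 CPM in WT, a log2 fold change of −0.12 (95% interval −0.27 to 0.021, edgeR adjusted p = 0.405). Nr1d2 was at 160 and 141.3 CPM in cKO, against 173 and 165 CPM in WT, with −0.16 on the log2 scale (95% interval −0.33 to −0.0011, edgeR adjusted p = 0.302). Without cKO 1 the value for Nr1d2 was −0.26, and without cKO 2 it was −0.078. Groups did not overlap in either gene, and neither passed. Nr1d1 shares 263 of its 3077 exon bases with Thra, a thyroid hormone receptor gene on the opposite strand, which was at 432 and 444 CPM in cKO and 397 and 418 CPM in WT. Without strand, reads of that shared part cannot be told apart between the 2 genes.

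Dbp, a transcription factor gene used as a readout of clock output because its RNA follows the activators closely, fell in Kdm6b-cKO cerebellum. It was at 61.4 and 70.6 CPM in cKO, against 79.9 and 86.2 CPM in WT, on average 20.6% lower. The lowest cKO value was in cKO 1, the opposite of Per1, where cKO 2 was lowest. The log2 fold change was −0.33 (SE 0.090, 95% interval −0.52 to −0.15) with edgeR adjusted p = 0.0404, and it ran from −0.44 to −0.23 with a library left out, the call being lost each time. Without WT 1, among libraries of 1 sex, it was −0.39 (edgeR adjusted p = 0.0518). Dbp lies on chromosome 7, 45705088 to 45710203, plus strand, and 539 of its 2993 exon bases (18.0%) are shared with Sphk2, a sphingosine kinase gene on the other strand. Sphk2 was at 48.5 and 45.7 CPM in cKO, against 55.0 and 54.3 CPM in WT (log2 fold change −0.21, edgeR adjusted p = 0.279).

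**Figure D2:**
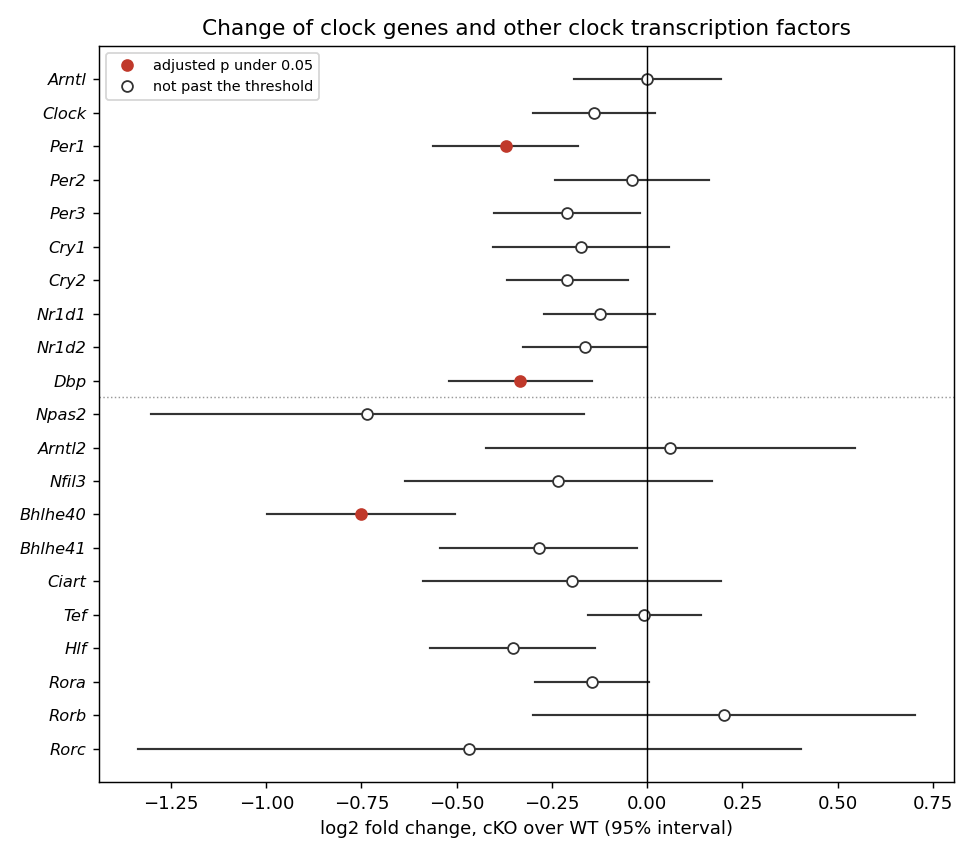
Log2 fold change of cKO over WT (horizontal axis) with its 95% interval for the 10 clock genes (above the dotted line) and 11 other clock transcription factors (below it); filled points passed an adjusted p of 0.05. Per1, Dbp and Bhlhe40 are the filled points, at −0.37, −0.33 and −0.75, and the intervals of Arntl, Per2 and Tef are centered near 0.

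To ask whether the sets of opposite phase moved in opposite directions, the repressor-phase members (Per1, Per2, Per3, Nr1d1, Nr1d2 and Dbp) were set against the activator-phase members (Arntl and Clock) within each library. The repressor-phase mean was 6.49 and 6.42 on the log2 CPM scale in cKO, against 6.68 and 6.65 in WT, and the groups did not overlap. The activator-phase mean was 6.41 and 6.41 in cKO, against 6.50 and 6.46 in WT, also lower in both cKO libraries. Thus the means of both sets were lower in cKO, by differences of −0.21 and −0.070 on the log2 scale, and not in opposite directions. Whether the hour of dissection differed between the groups was not tested. With only 2 genes in the activator-phase set, its lower mean came from Clock (log2 fold change −0.14), Arntl being at 0.00072.

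The repressor-phase mean minus the activator-phase mean was 0.077 and 0.0088 in cKO, against 0.18 and 0.19 in WT, so that the balance of the sets was lower in cKO by −0.14 on the log2 scale. This is a description of 4 libraries, with no test. The balance was −0.21 with Arntl alone as the activator. It changed sign to 0.064 with wider sets, which added Npas2 and Nfil3 as activator-phase and Tef, Hlf, Ciart and Bhlhe41 as repressor-phase genes. Npas2 and Nfil3 were of low abundance, and Npas2 had a log2 fold change of −0.73. The wider sets left out Bhlhe40, a clock repressor gene at −0.75, and a balance that includes it was not computed. For the first sets, any single library left out gave −0.17 to −0.11. The ratio of Arntl to Dbp in CPM was 0.924 and 0.843 in cKO, against 0.730 and 0.670 in WT, and that of Arntl to Per1 was 0.752 and 0.953 in cKO, against 0.649 and 0.651 in WT. For Per2 the same ratio was 1.04 and 1.16 in cKO, against 1.10 and 1.04 in WT, where the groups overlapped.

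**Figure D3:**
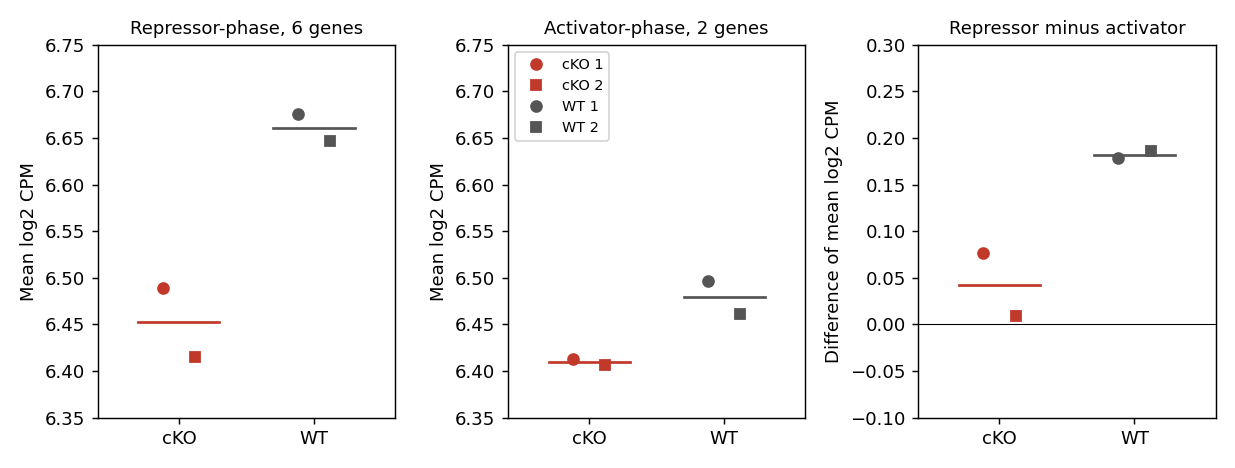
Mean log2 CPM of the repressor-phase set and of the activator-phase set, and their difference (vertical axes, which do not start at 0 in the first panels), for each cKO (red) and WT (grey) library, with a bar at the group mean. Both sets are lower in cKO, and the difference is 0.077 and 0.0088 in cKO against 0.18 and 0.19 in WT.

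Levels can be compared between genes only per length, as CPM per kilobase of exon. Full exon lengths were used, including the 539 of 2993 bases of Dbp shared with Sphk2. If reads of that part were dropped, Dbp is set too low, and its place beside Nr1d2 is uncertain. On this scale Nr1d1 was the highest member at 61.6 and 60.4 in cKO and 67.2 and 65.8 in WT, followed in both genotypes by Nr1d2, Dbp and Cry2. Per1 and Cry1 came next. In cKO both libraries of Cry1 (14.1 and 13.7) were above both of Per1 (13.4 and 11.1), while in WT the 2 genes overlapped, with means of 15.7 for Cry1 and 15.9 for Per1. Clock and Per2 overlapped in cKO and not in WT, where their means were 9.93 and 9.26. Arntl and Per3 closed the order. Arntl was at 7.54 and 7.91 CPM per kilobase in cKO and 7.76 and 7.68 in WT, and Per3 at 7.06 and 6.69 in cKO and 8.55 and 7.37 in WT, so that they overlapped in WT and not in cKO. On full exon lengths the order by means was thus the same in both genotypes but for these pairs, Per1 with Cry1 and Per3 with Arntl. Both pairs were apart in cKO and overlapped in WT.

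**Figure D4:**
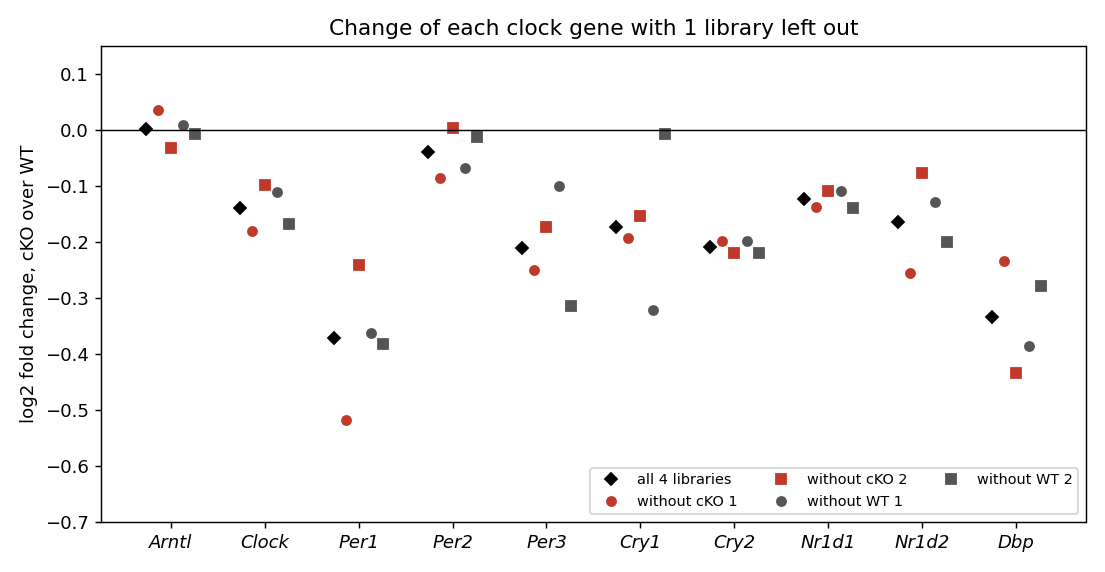
Log2 fold change of cKO over WT (vertical axis) for each clock gene with all 4 libraries (black diamonds) and with cKO 1 or cKO 2 (red) or WT 1 or WT 2 (grey) left out. Per1 and Dbp stay below −0.2 in each case, Cry2 keeps within −0.22 to −0.20, and Cry1 is at −0.0078 without WT 2.

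Among 11 other clock transcription factors, Bhlhe40 fell and 10 did not pass, with 0 higher, where 2.17% of all tested genes were called lower. Bhlhe40 encodes DEC1, a repressor that competes for E-boxes and is itself an E-box and activity target. It was at 27.8 and 24.2 CPM in cKO, against 42.7 and 45.0 CPM in WT, −0.75 on the log2 scale (SE 0.12) with edgeR adjusted p = 5.79e-04, larger than that of any of the 10 members. Both cKO libraries were below both WT libraries, and the value ran from −0.86 to −0.66 with a library left out. The median of the list was −0.23, beside 0.0036 over all tested genes, and −0.12 without WT 1. Genes of this list that did not pass, named here after their values were seen, include Hlf, a relative of Dbp, at 50.3 and 43.8 CPM in cKO and 56.5 and 63.8 CPM in WT (edgeR adjusted p = 0.0598). Tef, the third D-box factor of that family, was at 336 and 302 CPM in cKO and 320 and 321 CPM in WT, with overlapping groups. Npas2, which can take the place of Clock, had only 38 and 43 counts in cKO and 59 and 74 in WT (edgeR adjusted p = 0.156).

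Enzymes that modify clock proteins gave 1 call, where 2.17% of all tested genes were called lower and 1.87% higher. Of 12 kinases, phosphatases and ubiquitin enzymes 11 were tested, Ppp1ca being listed at 0 in all libraries, and 1 fell, 0 rose and 10 did not pass, with a median of −0.0092 that ran from −0.052 without WT 1 to 0.025 without WT 2. The gene that fell was Usp2, which encodes a ubiquitin protease and is itself rhythmic, at 56.5 and 43.9 CPM in cKO, against 67.6 and 63.8 CPM in WT, −0.39 on the log2 scale (SE 0.11) with edgeR adjusted p = 0.0478. Its value was −0.58 without cKO 1 and −0.22 without cKO 2. Csnk1e, a casein kinase gene acting on Period proteins and named after its value was seen, was at 136 and 155 CPM in cKO, against 110 and 126 CPM in WT, and did not pass (edgeR adjusted p = 0.0582).

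Of 9 clock-controlled output genes 3 fell, 0 rose and 6 did not pass, with a median of −0.20. Of all tested genes 2.17% were called lower and 1.87% higher, and their median was 0.0036. Those that fell were Usp2, Tsc22d3 and Cdkn1a, and the last pair also stand in a list of 12 glucocorticoid response genes. Tsc22d3, a glucocorticoid-induced leucine zipper gene, was at 84.9 and 86.3 CPM in cKO, against 106 and 107 CPM in WT, −0.32 on the log2 scale (SE 0.079) with edgeR adjusted p = 0.0249. Cdkn1a, a cell cycle inhibitor gene, was at 66.0 and 58.6 CPM in cKO, against 82.2 and 75.4 CPM in WT, −0.34 on the log2 scale (SE 0.091) with edgeR adjusted p = 0.0404. The calls of Usp2, Tsc22d3 and Cdkn1a were lost without WT 1, where edgeR gave adjusted p = 0.198, 0.105 and 0.344. They were also lost in DESeq2, at an adjusted p of 0.175, 0.0979 and 0.173, and when edgeR was run on unfiltered counts, at 0.209, 0.0979 and 0.162. The glucocorticoid list as a whole had 3 lower and 1 higher of 12 and a median of −0.22, which was −0.10 without WT 1. Mt1, a metallothionein gene, was at 111 and 127 CPM in cKO, against 177 and 157 CPM in WT, and fell by 0.49 on the log2 scale (SE 0.084, edgeR adjusted p = 0.00129). Ddit4, which encodes a stress-responsive inhibitor of mTOR signaling, was at 89.0 and 98.1 CPM in cKO, against 59.0 and 73.2 CPM in WT, and rose by 0.50 (SE 0.096, edgeR adjusted p = 0.00375). Without WT 1 the call of Ddit4 was lost (edgeR adjusted p = 0.0904) and that of Mt1 was not (edgeR adjusted p = 0.0183). In 7 of the 12 genes both cKO libraries lay below both WT libraries and in 1 above, against 23.2% of all tested genes for each. Fkbp5 and Sgk1, standard glucocorticoid targets named after their values were seen, overlapped between the groups. Fkbp5 was at 17.2 and 18.9 CPM in cKO, against 18.0 and 17.6 CPM in WT, and Sgk1 at 78.1 and 73.9 CPM in cKO, against 75.4 and 79.3 CPM in WT.

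Per1 and Bhlhe40 are also targets of neuronal activity, and a list of genes of that response was set beside them. Of 14 activity and cAMP response genes 12 were tested, of which 6 fell, 0 rose and 6 did not pass. Of all tested genes 2.17% were called lower and 1.87% higher. The list had a median of −0.51, beside 0.0036 over all tested genes. Its summed level was 173 and 176 CPM in cKO, against 316 and 220 CPM in WT. Log2 fold changes were below 0 in 10 genes and above 0 in 2, Crem (0.16) and Sik1 (0.11). Fos was at 4.13 and 7.28 CPM in cKO, against 37.0 and 8.96 CPM in WT, and Nr4a1 at 16.6 and 13.8 CPM in cKO, against 37.9 and 20.8 CPM in WT. Both were higher in WT 1 than in WT 2, and without WT 1 their log2 fold changes were −0.66 and −0.45, against −2.02 and −0.94 with it. Both calls were lost without WT 1, where edgeR gave adjusted p = 0.447 and 0.360, and DESeq2 on all 4 libraries made neither (adjusted p = 0.422 and 0.371). The median of the list was −0.33 without WT 1. Jun was at 48.8 and 49.1 CPM in cKO, against 65.3 and 66.0 CPM in WT, −0.42 on the log2 scale (SE 0.093) with edgeR adjusted p = 0.0105. For Per1 the log2 fold change was −0.36 without WT 1, against −0.37 with it. For Jun it was −0.43, against −0.42. The call of Per1, like those of Fos and Nr4a1, was lost without WT 1. DESeq2 on all 4 libraries called Jun (adjusted p = 0.0499) and did not call Per1 (adjusted p = 0.0967). The part of the activity response in the values of Per1 and Bhlhe40 was not tested.

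Cell type markers gave these values beside the clock genes, where 2.17% of all tested genes were called lower and 1.87% higher. Of 7 granule neuron markers 3 fell and 0 rose, with a summed level of 4923 and 4789 CPM in cKO, against 5010 and 5253 CPM in WT, and a median of 0.020. Of 5 Purkinje cell markers 0 were called by edgeR (2 at an unadjusted p under 0.05), with sums of 4879 and 4574 CPM in cKO, against 5278 and 5228 CPM in WT. Bergmann glia and astrocyte markers summed to 2638 and 2623 CPM in cKO, against 2954 and 2969 CPM in WT, with 2 of 5 lower (Slc1a3 and Gdf10), and oligodendrocyte markers to 8273 and 8316 CPM in cKO, against 9545 and 9089 CPM in WT, with 1 of 5 lower. The medians were −0.13 for the Purkinje, 0.035 for the Bergmann glia and astrocyte and −0.11 for the oligodendrocyte list, and Aldh1l1, an astrocyte marker named after its values were seen, was at 95.7 and 98.5 CPM in cKO, against 75.9 and 83.9 CPM in WT (edgeR adjusted p = 0.0608). The summed levels of these 4 lists were lower in both cKO libraries, as were those of the 10 clock genes, at 947 and 910 CPM in cKO against 1055 and 1042 CPM in WT. So was the sum of all tested genes, at 994570 and 984610 CPM in cKO against 1006400 and 1014700 CPM in WT. Microglia and endothelium sums were also lower in both cKO libraries, and choroid plexus sums were higher. Of the pineal list only Chrna3 was tested, and it was higher in both cKO libraries without passing. Counts of Aanat, another pineal marker, overlapped between the groups. Whether the clock genes changed within a cell type was not tested. Without cKO 1, the library with the choroid plexus signal, the log2 fold change was −0.52 for Per1 and −0.23 for Dbp.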

How the data were processed

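RNA was poly(A)-enriched and sequenced as paired ends. Per the study's methods and the submitters' processing notes, trimming used Trimmomatic 0.38 and alignment STAR 2.7.2b on mm10 (GRCm38), after which the authors ran HTSeq to count exonic reads of each gene. The deposited values are whole-number counts, not normalized. The sources used here name no strand setting, so it is not given. Counts in genes made up 39.0% to 40.5% of entries, and the rest named no gene and was left out. All 55341 symbols matched GENCODE M21 (GRCm38), which gave positions and exon lengths. Reads shared by overlapping genes are dropped by such counting.

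Genes were filtered with filterByExpr of edgeR 4.0.16 (R 4.3.3), scaled by TMM and compared by edgeR's quasi-likelihood test (glmQLFTest, two-sided, genotype as the only term), with Benjamini-Hochberg adjustment over 16617 genes at 0.05. Standard errors were the size of the fold change over the square root of F. Set means used log2 CPM with a prior count of 2. Each group had n = 2. Counts of replicate libraries were farther apart than sampling allows (chi-square over degrees of freedom 4.04 in cKO and 3.72 in WT), and they count as separate mice. The test was checked on simulated counts.

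The members and gene lists were chosen with earlier results of these data known. Named genes were the 10 members, Kdm6b and, by p within each pathway list, the first 3 genes that passed, or the first gene where none did; others say so where named. Alternatives covered scaling, low-count filters, DESeq2 1.42.0, limma-voom (limma 3.58.1), a replicate block, leaving out X and Y genes, each library, and the make-up of the phase sets.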

Additional observations from a re-analysis of the deposited data

How the results depend on the processing

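The count of clock genes past the threshold, 2 with edgeR, was 1 (Per1) with library size alone, 0 with no filter on low counts and 0 in DESeq2, where 4 and 3 members had an unadjusted p under 0.05. It was 0 to 1 with a library left out, and in the fits without cKO 1 or cKO 2 edgeR called 0 of all genes (2258 and 1691 at an unadjusted p under 0.05), so a lost call there says little of a gene. Over all genes the count was 671 and became 177 with no filter, 320 in DESeq2 and 1130 with a replicate block, and to 0 to 512 with a library left out. Lower genes were 53.8% of calls with TMM, 40.2% with library size alone and 63.0% with upper-quartile scaling. In DESeq2 the adjusted p was 0.0967 for Per1 and 0.173 for Dbp, with log2 fold changes of −0.37 and −0.33. Over 13 alternatives the adjusted p ran from 0.00186 to 0.483 for Per1, called in 8, and from 0.00816 to 0.483 for Dbp, called in 6, and neither changed sign. The log2 fold change of Arntl, near 0, was −0.019 with upper-quartile scaling, −6.7e-04 with no filter and −3.2e-04 in limma-voom, and −0.032 to 0.035 with a library left out, where that of Per2 was −0.086 to 0.0036. The balance of the phase sets was −0.21 with Arntl alone and 0.064 with the wider sets, which left out Bhlhe40. The cause of these shifts was not tested. Deviations of WT 1 and cKO 1 from their group means had a correlation of 0.043 across genes. WT 1 showed the male pattern and cKO 1 held the choroid plexus signal, so this value cannot settle whether replicate numbers pair the libraries. With the replicate block Per1 and Dbp were the clock genes called. With 2 libraries per group, a member that did not pass is not shown to be unchanged.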
